A study of Equus caballus with 2 samples.

Results

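The cells described here were cultured equine endometrial fibroblasts chosen by their transcripts as cells in S phase, the stage of the cell cycle in which DNA is copied. They were chosen in each library from cells that had 20000 or more unique molecular identifiers (UMIs, each 1 captured transcript), 3500 or more genes and a mitochondrial share under 4%. In these kept cells, the levels of 15 genes of DNA replication, each in CPM (UMIs of the gene per 1e6 UMIs of the cell), were summed to an S score, the top 5% of cells were taken, and those with 6 or more of 12 mitosis genes detected were removed. The rule left 117 of 3865 kept control cells and 154 of 4513 kept TGF-β1 cells, hence 271 of 8378 kept cells and of 9508 deposited barcodes. They are called S cells below, and all remaining kept cells are called other cells. Of the S cells, 185 had at least 8 of the 15 S genes detected and 86 had fewer. In the latter, the replication genes outside the rule lay near the level of other cells in the control library (median log2 ratio 0.04) and above it after TGF-β1 (0.33, with 86 of 100 genes above 0), so that the name S cells refers to the rule.

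The study asked how fibroblasts from the endometrium of mares respond to TGF-β1, a cytokine that drives fibrosis. Fibroblasts at the third passage were grown on collagen-coated hydrogels, first with 10% and then with 4% fetal bovine serum (FBS). From 48 to 72 h, the serum was replaced by 0.1% bovine serum albumin, and the control cells received nothing further while the TGF-β1 cells received 10 ng/ml human recombinant TGF-β1 for these 24 h. After trypsin treatment, cells of 4 mares were pooled into 1 library per condition and sequenced with the 10x Genomics 3′ assay. Condition and library therefore cannot be told apart, the cells are not replicates, and no test was possible. All intervals are exact binomial 95% intervals and cover counting error only. Both conditions were thus without serum during treatment, and the mare of a cell was not known here.

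A cell that enters S phase first loads the MCM2 to MCM7 helicase onto replication origins, with *CDC6* and *CDT1* as loading factors. CDC45 and the GINS complex then activate the helicase, primase and the DNA polymerases copy the strands, and PCNA, the sliding clamp, holds polymerases on the template. Transcription of most of these genes is driven by E2F factors that are freed from RB proteins at the end of G1. PCNA is also used in DNA repair.

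The S score used *MCM2* to *MCM7*, *PCNA*, *CDC45*, *CLSPN*, *CDC6*, *GINS2*, *RRM2*, *TYMS*, *UHRF1* and *DTL*, whereas *E2F1* was not found by symbol. Of these 15 genes, *MCM2*, *CDC45*, *CLSPN*, *CDC6*, *GINS2*, *UHRF1* and *DTL* were below 5 CPM over kept cells. The mitosis genes were *TOP2A*, *CDK1*, *CCNB2*, *BIRC5*, *CENPF*, *NUSAP1*, *TPX2*, *CDC20*, *ASPM*, *BUB1B*, *CCNA2* and *KIF20A*. The score of the S cells ranged from 323 to 1814 CPM in the control library (median 459) and from 326 to 1905 CPM after TGF-β1 (median 485), against medians of 90.4 and 91.9 CPM in the other cells. The S cells were a range of this score and not a separate group. The last control cell inside the limit had 322.7 CPM and the first outside had 322.3 CPM, and after TGF-β1 these were 325.9 and 322.0 CPM. The mitosis limit removed 76 control and 71 TGF-β1 cells from the top 5%, and 9 further cells in each library would have stayed with a limit 1 gene higher. *NUSAP1* was detected in 97.4% of control and 96.8% of TGF-β1 S cells after thinning to 20000 UMIs, and in 91.6% and 96.4% of other cells, so that it separated few cells.

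S cells were somewhat deeper than other cells. Their median was 58969 UMIs and 6914 genes in the control library and 47053.5 UMIs and 6600 genes after TGF-β1, whereas other cells had 50078.5 UMIs with 6522 genes and 42981 UMIs with 6229 genes. The median mitochondrial share was 1.38% against 1.48% in the control library and 1.24% against 1.21% after TGF-β1. The S cells together held 7209165 control and 7876240 TGF-β1 UMIs, and the other cells held 203288085 and 211854904. The libraries shared 6 deposited barcodes, of which 2 were kept and 0 belonged to an S cell.

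The S cells expressed fibroblast markers. Of 8 markers, 0 differed over 2-fold from other cells, which was near the share of all genes tested below. Of those, 0.631% were higher and 0.257% lower in the control library, and 0.738% and 0.0856% after TGF-β1. The median log2 ratio of the 8 was -0.04 in the control library, with 4 below 0, and 0.05 after TGF-β1, with 3 below 0. The lowest was *DCN*, decorin, at -0.29 (-0.32 to -0.27) and -0.42 (-0.45 to -0.40). *VIM* was at 4403 CPM in S cells and 4399 CPM in other cells of the control library, and at 2282 and 2238 CPM after TGF-β1. *COL1A1* was at 5253 against 5621 CPM and at 6138 against 6385 CPM. *EPCAM*, *CDH1*, *PTPRC* and *CDH5*, taken from the lists of epithelial, immune and endothelial markers, had 0 UMIs in the S cells of both libraries. This allows up to 0.416 and 0.381 CPM (3 UMIs of the total). Other listed markers below 5 CPM had more than 3 UMIs in S cells. Of these, 1 epithelial and 1 endothelial or mural marker were over 2-fold higher after TGF-β1 (log2 1.26 and 1.79), and 0 were in the control library. Of 8 epithelial markers found, 2 passed 5 CPM. These 2 summed to 54.4 CPM in control S cells and 136 CPM in other control cells, mostly from *KRT8*, and to 10.4 and 11.6 CPM after TGF-β1. Of 10 immune markers, 2 passed 5 CPM and summed to 63.0 against 56.4 CPM and to 52.6 against 52.9 CPM. Of 10 endothelial and mural markers, 2 passed 5 CPM and summed to 70.6 against 63.4 CPM and to 90.1 against 83.4 CPM.

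The 15 S genes themselves chose the cells, so their levels are given as a description. *MCM5*, a helicase subunit, ranged from 0 to 231 CPM over the control S cells with a median of 31.3, and from 0 to 364 CPM with a median of 47.8 after TGF-β1. The median of other cells was 0 CPM in both libraries, although single other cells reached 355 and 377 CPM. Summed over cells, *MCM5* was at 49.2 against 6.76 CPM in the control library and at 74.8 against 5.76 CPM after TGF-β1. *PCNA* ranged from 0 to 872 CPM in control S cells with a median of 121, and from 0 to 452 CPM after TGF-β1 with a median of 90.5. The medians of other cells were 20.3 and 19.0 CPM. *CLSPN*, which relays replication stress signals to CHEK1, was at 10.5 against 2.17 CPM and at 18.2 against 1.56 CPM. *CDC45* was sparse, with 22 and 27 UMIs over all S cells, and was at 3.05 against 1.18 CPM and at 3.43 against 0.684 CPM. Every one of these 4 markers was thus higher in the S cells of both libraries, and each had overlapping values in single S and other cells.

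To give each S gene a readout that its own counts did not choose, it was left out of the score and the top 5% was taken again on the other genes. Of the 15 genes, 14 remained over 2-fold higher in the cells so chosen in each library, with a median log2 ratio of 2.07 in the control library and 2.86 after TGF-β1. *MCM3* reached 3.01 (interval 2.82 to 3.21) and 3.07 (2.89 to 3.24), and *MCM5* reached 2.76 (2.58 to 2.93) and 3.55 (3.40 to 3.70). The exception was *TYMS*, thymidylate synthase, at 0.58 (0.34 to 0.82) and 0.77 (0.44 to 1.08). *PCNA* fell from 2.20 to 1.57 in the control library and from 2.18 to 1.94 after TGF-β1 when it was left out, and 89 of the 115 control cells then chosen and 137 of the 154 TGF-β1 cells were S cells by the full score. *PCNA* thus had more weight on the choice of cells in the control library. When cells were chosen on 7 of the S genes, 8 of the 8 held-out genes were over 2-fold higher in both libraries, and when they were chosen on those 8, 6 of the 7 others were.

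**Figure D1:**
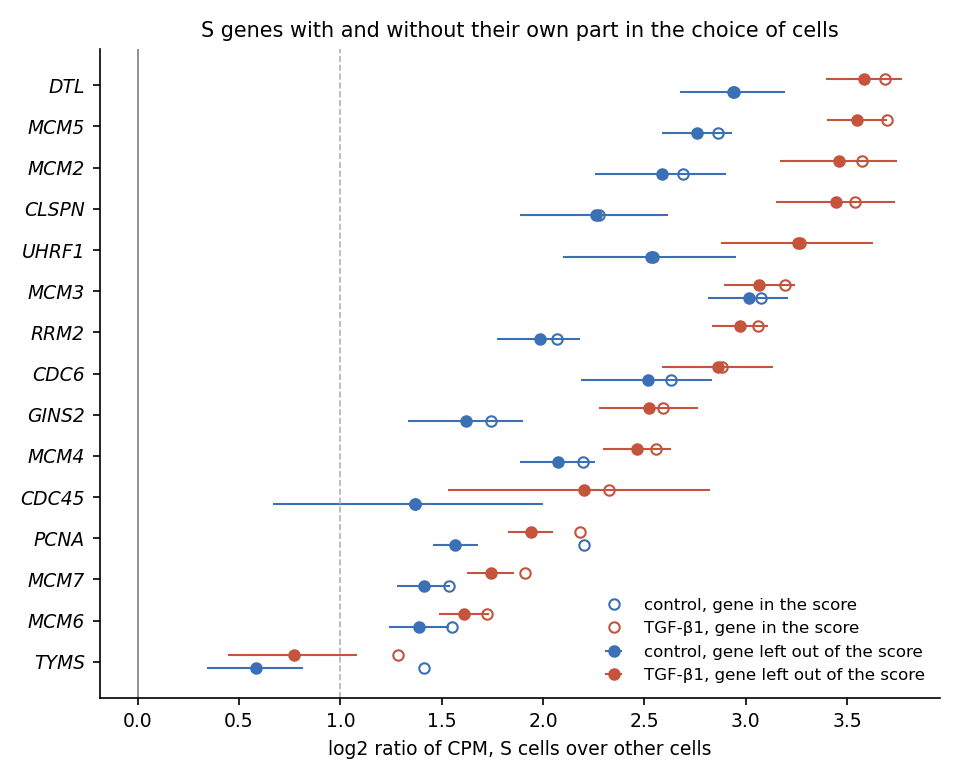
Log2 ratio of each S gene, in S cells over other cells of the same library, as measured in the cells of the full rule and in cells chosen without that gene, for the control and the TGF-β1 library; bars are 95% intervals of counting error. All genes except *TYMS* lie above 1 (2-fold) in both libraries when left out.

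Outside the rule, 9344 genes with at least 5 CPM over kept cells were compared between S cells and other cells of the same library, and a ratio over 2-fold was counted as called. In the control library 59 genes (0.631%) were higher and 24 (0.257%) lower, and in the TGF-β1 library 69 (0.738%) were higher and 8 (0.0856%) lower. Of the higher genes 35 were shared, which is 59.3% of the control list and 50.7% of the TGF-β1 list, whereas 1 lower gene was shared. The median log2 ratio of all tested genes was 0.04 and 0.01.

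Most replication genes at 5 CPM that the rule did not use were higher in S cells, but the majority by less than 2-fold. Of 164 genes listed for replication, 155 were found and 100 passed 5 CPM. Their median log2 ratio was 0.40 in the control library and 0.47 after TGF-β1, 95 and 93 lay above 0, 22 and 33 were over 2-fold higher and 0 were over 2-fold lower. These shares over 2-fold, and those of the single replication lists below, stand against the 0.631% and 0.738% of all tested genes. Of all 9344 tested genes, 5454 and 4877 lay above 0.

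Among the genes of the fork, *PRIM1*, the catalytic subunit of primase, had the largest ratio of all listed replication genes that passed 5 CPM. Its level ranged from 0 to 186 CPM over control S cells (median 24.1) and from 0 to 204 CPM over TGF-β1 S cells (median 40.2), and the median of other cells was 0. Summed over cells it was at 41.6 against 9.98 CPM (log2 2.06, interval 1.88 to 2.24) and at 48.9 against 8.91 CPM (2.46, 2.29 to 2.61). With the top 10% of the score these ratios were 1.27 and 1.76, and without the mitosis limit 2.99 and 2.84. *FEN1*, the nuclease that trims Okazaki fragments, had log2 ratios of 1.67 and 1.76, and *LIG1*, the ligase that joins them, 1.37 and 1.69. *RFC4* of the clamp loader was at 1.51 and 2.01, and *TIPIN* of the fork protection complex at 1.72 and 1.58. *POLA1*, the catalytic subunit of the polymerase that extends primers, was at 1.30 and 1.74. The single-strand binding protein genes were graded, as *RPA1* was at 1.01 and 1.18, *RPA2* at 0.93 and 0.92 and *RPA3* at 0.44 and 0.45. Over all 19 genes of this group the medians were 1.01 and 1.18, with 10 and 12 over 2-fold higher. *POLE*, the leading-strand polymerase, was below 5 CPM, with 38 and 71 UMIs in S cells, and had log2 ratios of 2.63 (2.08 to 3.14) and 4.03 (3.58 to 4.47).

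Origin genes ranged from strong differences to none detectable. *WDHD1*, which couples the helicase to polymerase alpha, was at 1.89 and 2.33, *ORC6* at 1.15 and 1.74 and *GMNN*, the inhibitor of CDT1, at 1.39 and 1.07. *CDT1* itself was below 5 CPM over kept cells but was at 24.0 against 3.32 CPM (2.85, 2.60 to 3.10) and at 31.2 against 2.39 CPM (3.71, 3.48 to 3.93). *CDT1* and its inhibitor were therefore both higher in the same pool of cells. *ORC4*, in contrast, had ratios of 0.07 (-0.09 to 0.23) and 0.04 (-0.11 to 0.19), and *MCM9* of -0.20 and -0.12. The 10 members that passed 5 CPM had medians of 0.44 and 0.62, with 4 over 2-fold higher in each library.

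Genes of nucleotide supply had smaller ratios than those of the fork. *RRM1*, a subunit of ribonucleotide reductase, was at 1.14 and 1.22. The subunit gene *RRM2* belongs to the rule, and was at 1.98 and 2.97 in cells chosen without it. *SHMT1* of the folate cycle was at 1.38 and 1.29, and *TK1*, thymidine kinase, at 0.89 and 1.20. *DUT*, which hydrolyses dUTP, was at -0.15 (-0.40 to 0.09) and 0.03 (-0.20 to 0.26). The 17 members had medians of 0.28 and 0.42, with 2 and 3 over 2-fold higher.

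In chromatin assembly, *CHAF1B* of the histone chaperone CAF-1 was at 1.57 and 1.65, and the helicase-like gene *HELLS*, below 5 CPM, at 2.63 and 3.40. *SLBP*, which binds the stem-loop of histone mRNA, was at 0.93 and 1.23, and the histone chaperone *NASP* at 0.83 and 0.90. *DNMT1*, the maintenance DNA methyltransferase, was at 433 against 429 CPM (0.01, -0.04 to 0.07) and at 391 against 355 CPM (0.14, 0.08 to 0.19). The 23 members had medians of 0.21 and 0.31, with 1 and 3 over 2-fold higher.

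For replication stress and repair the medians over 18 genes were 0.54 and 1.00, with 5 and 9 over 2-fold higher. *CHEK1*, the kinase of the S phase checkpoint, was at 1.67 and 1.798, and *UNG*, which removes uracil from DNA, at 1.58 and 2.03. *RAD51AP1* and *BLM* of homologous recombination had 1.27 and 1.58, and 1.13 and 1.53. *BRCA2*, below 5 CPM, had 2.19 (1.85 to 2.51) and 3.02 (2.74 to 3.29). *FANCD2* of the Fanconi anaemia repair pathway, at 209 and 192 CPM in S cells, had 0.20 and 0.09.

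**Figure D2:**
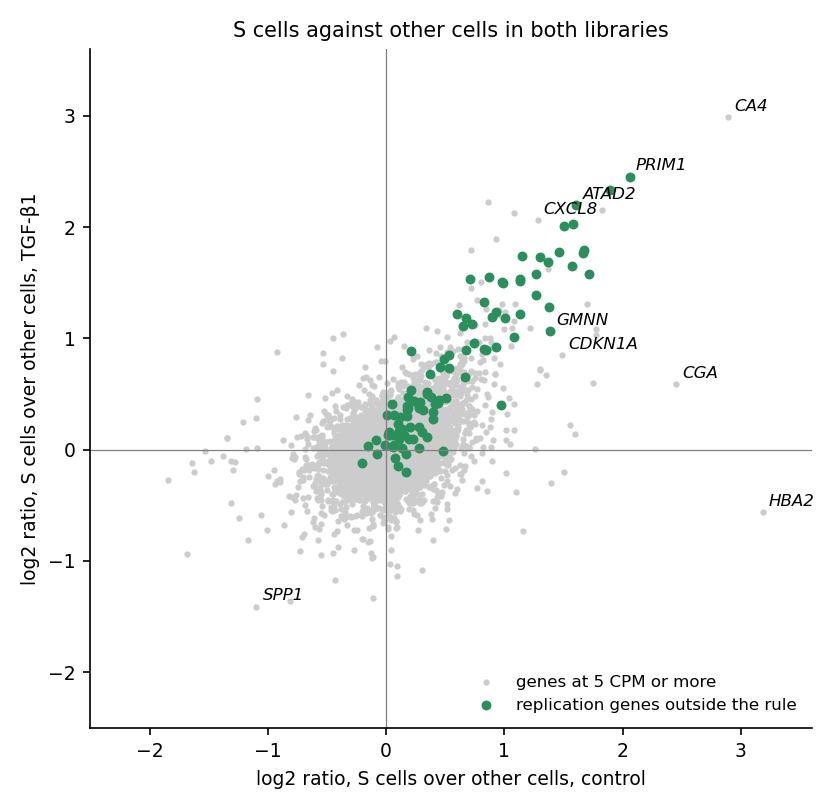
Log2 ratio of S cells over other cells in the control library (x axis) against the same ratio in the TGF-β1 library (y axis) for the genes at or above 5 CPM outside the rule, with the replication genes marked. *PRIM1* lies at 2.06 and 2.46, and *HBA2* is high in the control library (3.18) and below 0 after TGF-β1 (-0.56).

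Among regulators of the G1 to S transition, *CCNE1* and *CCNE2*, the cyclins that activate CDK2, were both below 5 CPM. *CCNE1* was at 9.43 against 3.77 CPM (1.32, 0.94 to 1.68) and at 13.6 against 4.32 CPM (1.65, 1.35 to 1.94). *CCNE2* was at 1.63 (0.92 to 2.26) and 2.36 (1.87 to 2.82). *RBL1* (p107), itself an E2F target, had 0.71 and 1.53. Of 13 members that passed 5 CPM, 0 were over 2-fold higher in the control library and 2 after TGF-β1, with medians of 0.40 and 0.41. *CCND1*, the G1 cyclin induced by growth factors, was also higher, at 130 against 77.1 CPM (0.75, 0.65 to 0.85) and at 244 against 174 CPM (0.49, 0.42 to 0.55). *CDKN1C* (p57), an inhibitor of cyclin-dependent kinases, was lower, at 38.4 against 57.1 CPM (-0.57, -0.75 to -0.40) and at 29.2 against 47.8 CPM (-0.71, -0.91 to -0.52). Neither passed 2-fold. The inhibitor *CDKN1A* (p21), summed over cells, was at 161 against 57.4 CPM (1.49, 1.40 to 1.58) and at 82.7 against 45.9 CPM (0.85, 0.73 to 0.96), but part of the S cells carried this difference. A level above 200 CPM was found in 25 of 117 and 14 of 154 S cells, and the median cell was at 32.1 CPM among control S cells and 27.7 CPM among other control cells, and at 17.8 and 24.97 CPM after TGF-β1. The ratio was -0.25 and -0.93 in S cells with at least 8 S genes, and -0.47 and -0.60 when cells were chosen by a mean log2 score. The 21 G1 cyclins, inhibitors and quiescence genes as a list had medians of 0.02 and 0.10. Of these, 11 and 13 lay above 0, near the share of all tested genes (5454 and 4877 of 9344). Over 2-fold higher were 2 and 0, where 0.631% and 0.738% of all tested genes were.

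Mitosis genes outside the rule were not all low in S cells, although the rule had removed cells with many mitosis genes. Over 17 members the medians were 0.30 and 0.71. *UBE2C*, which works with the anaphase-promoting complex, was at 0.75 and 1.12, while *CCNB1*, cyclin B1, was at -1.25 (-1.98 to -0.60) and -0.62 (-1.32 to 0.00). *PLK1* had 0 UMIs in the S cells of both libraries, against 1.49 and 1.19 CPM in other cells. *CDC20* and *CCNA2* belonged to the rule.

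Of the 12 genes named for the largest reduction in both libraries, *SPP1*, osteopontin, was over 2-fold lower in both, at 1.39 against 2.97 CPM and at 4.44 against 11.8 CPM. Its 10 and 35 UMIs came from 9 and 19 S cells. *NIBAN1* was at -0.82 and -1.36, *KIF26B* at -1.06 and -0.59 and *CYP1B1*, a xenobiotic-metabolising enzyme, at -0.69 and -0.76. *LMCD1* was at -0.82 after TGF-β1, whereas its control ratio is not given because it rested on no more than 3 UMIs in S cells. All 12 were low in level, at most 46.9 CPM over kept cells (*CADPS*).

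The fibroblast programme differed little between S cells and other cells. The 23 collagen and matrix genes had medians of -0.02 and -0.09. Of the 23, 13 and 18 lay below 0, where 3890 and 4467 of the 9344 tested genes did. In either direction 0 passed 2-fold, which was near the share of all tested genes. Of those, 0.631% were higher and 0.257% lower in the control library, and 0.738% and 0.0856% after TGF-β1. *COL3A1* was at -0.33 (-0.35 to -0.32) and -0.23 (-0.24 to -0.22), and the proteoglycan gene *DCN* was lower as given above. The 13 contractile genes had medians of -0.00 and -0.04, with *ACTA2*, smooth muscle actin, at 0.15 and 0.17. *TAGLN* was at 0.01 and -0.04. Complement and interferon genes had medians of -0.13 and -0.12, and TGF-β response genes of -0.07 and -0.01.

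Not all S cells had the same profile. The number of the 15 S genes detected per S cell ranged from 2 to 15, with a median of 9 in the control library and 10 after TGF-β1, against 3 in other cells of both libraries. After thinning to 20000 UMIs the medians were 5 and 7 against 1 and 1. In 26 control and 10 TGF-β1 S cells a single gene gave more than 50% of the score, and *PCNA* was the largest contributor in 56 of 117 and 42 of 154 cells. After these values had been seen, the S cells were divided at 8 detected S genes. This gave 73 control and 112 TGF-β1 cells with at least 8 S genes, and 44 and 42 cells with fewer. Near the division, 5 control and 14 TGF-β1 cells had 7 genes and 8 and 16 cells had 8. The cells with fewer S genes were shallower, with medians of 42671.5 and 35043.5 UMIs against 65630 and 52584.5, and a comparison at matched depth is given for *CDKN1A*.

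The replication genes outside the rule had higher medians in the cells with at least 8 S genes than in those with fewer, which were also shallower, and depth was not matched for these genes. In the cells with at least 8 S genes 72 control genes (0.771%) and 78 TGF-β1 genes (0.835%) outside the rule were over 2-fold higher than in other cells, and 51 of them were shared (70.8% and 65.4% of the lists). Of 100 replication genes outside the rule, 30 and 37 were over 2-fold higher, with medians of 0.52 and 0.53. In the cells with fewer S genes the medians of these 100 genes were 0.04 and 0.33, and 2 and 5 were over 2-fold higher, where 219 of all tested genes (2.34%) and 129 (1.38%) were. After TGF-β1 86 of the 100 lay above 0 in the cells with fewer S genes, and so did 19 of the 19 fork genes (median 0.54). *PRIM1* was at 54.3 CPM in control cells with at least 8 S genes, 9.35 CPM in those with fewer and 9.98 CPM in other cells. After TGF-β1 it was at 53.4, 28.8 and 8.91 CPM. The cells with few S genes thus had *PRIM1* near the level of other cells in the control library and above it after TGF-β1 (log2 1.69). Among the rule genes, which set the division, *MCM3* was at 53.3, 4.43 and 4.70 CPM in the control library, whereas *PCNA* was at 124, 209 and 32.2 CPM and *TYMS* at 20.1, 76.7 and 13.6 CPM. After TGF-β1 *PCNA* was at 112, 117 and 24.8 CPM and *TYMS* at 10.3, 37.0 and 6.26 CPM. A cell that passes the score with few S genes must carry it on few genes, so that these levels follow in part from the rule and the division.

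Some genes outside the replication lists were high in the S cells with few S genes, and they were picked after their values had been seen. *CDKN1A* ranged from 0 to 2614 CPM with a median of 182 in the 44 control cells, and from 0 to 3098 CPM with a median of 37.2 in the 42 TGF-β1 cells. In S cells with at least 8 S genes the medians were 20.9 and 14.96 CPM, and in other cells 27.7 and 24.97 CPM. Summed over cells, *CDKN1A* was at 449 CPM in control cells with few S genes, 48.3 CPM in those with many and 57.4 CPM in other cells. After TGF-β1 it was at 340, 24.1 and 45.9 CPM. The log2 ratio over other cells was thus 2.97 and 2.89 in cells with few S genes and -0.25 and -0.93 in cells with many. A level above 200 CPM was found in 22 of 44 control cells with few S genes (50%, 34.6 to 65.4%) and in 13 of 42 after TGF-β1 (31.0%, 17.6 to 47.1%). It was found in 3 of 73 and 1 of 112 cells with many S genes, and in 5.12% and 2.73% of other cells.

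**Figure D3:**
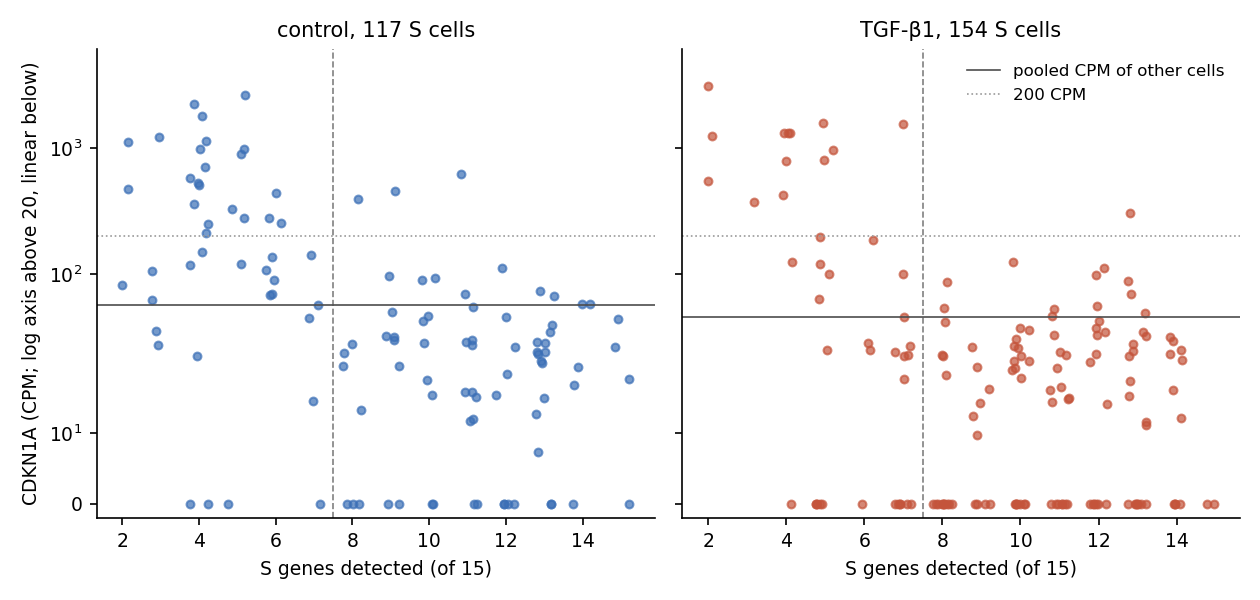
*CDKN1A* in CPM (y axis, log scale above 20 and linear below) of each S cell against the number of S genes detected in it (x axis, points shifted slightly), in the control (117 cells) and TGF-β1 (154 cells) library. The solid line is the summed level of other cells, the dotted line 200 CPM and the dashed line the division at 8 genes; 22 of 44 control and 13 of 42 TGF-β1 cells left of the division lie above 200 CPM.

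The level of *CDKN1A* was high at the lowest numbers of S genes and lower, without a steady order, from 7 genes on. Summed over cells, control S cells with 4 S genes were at 604 CPM (16 cells), those with 5 at 867 CPM (7 cells), those with 6 at 188 CPM (8 cells) and those with 7 at 32.9 CPM (5 cells). After TGF-β1 the 7 cells with 4 S genes were at 805 CPM, the 13 cells with 5 at 275 CPM, the 4 cells with 6 at 59.4 CPM and the 14 cells with 7 at 81.6 CPM. From 8 genes on these sums over cells lay between 22.8 and 94.4 CPM in the control library and between 0 and 43.4 CPM after TGF-β1, while single cells reached 626 and 305 CPM. Depth was then matched. Within the middle range of UMIs of the cells with few S genes (32991.5 to 55924 UMIs), 22 such control cells were at 730 CPM, 16 S cells with at least 8 S genes at 36.3 CPM and 2187 other cells at 52.6 CPM. Between 27820 and 40388.2 UMIs, 20 such TGF-β1 cells were at 493 CPM, 10 S cells with at least 8 S genes at 24.8 CPM and 1563 other cells at 36.8 CPM. The log2 ratio of S cells with few over those with many S genes was 4.33 (3.80 to 4.92) and 4.31 (3.37 to 5.45). Among other cells, those with *CDKN1A* above 200 CPM had *PCNA* at 72.3 CPM in the control library and 63.7 CPM after TGF-β1, against 30.0 and 23.5 CPM in the remainder.

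Further single genes, named after their values had been seen, were also high in the S cells with few S genes. The replication stress and repair list had medians of -0.14 and 0.29 in these cells, with 7 and 16 of 18 above 0. In it 0 of 18 were over 2-fold higher, where 2.34% and 1.38% of all tested genes were. *MDM2*, a ubiquitin ligase, was at 146 CPM in control cells with few S genes, 32.8 CPM in those with many and 42.4 CPM in other cells, and after TGF-β1 at 103, 33.0 and 40.3 CPM. *BAX*, a pro-apoptotic gene, was at 9973, 2508 and 2998 CPM in the same order, and after TGF-β1 at 3014, 1270 and 1334 CPM. *FAS*, a death receptor, had log2 ratios of 1.98 and 1.60 in cells with few S genes, *XPC*, a gene of nucleotide excision repair that is not on that list, 1.49 and 1.85, *TIGAR*, which lowers glycolytic flux, 2.76 and 2.23 and *ZMAT3* 1.67 and 1.43.

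Other genes that led the S cells with few S genes included *CA4*, a membrane-bound carbonic anhydrase. It was at 584 CPM in control cells with few S genes, 10.0 CPM in those with many and 23.2 CPM in other cells, and after TGF-β1 at 291, 3.58 and 7.16 CPM. A single cell held 18% of its UMIs in control S cells and 27% after TGF-β1, and 31 and 15 S cells had any. A level above 100 CPM was found in 18 of the 44 and 10 of the 42 cells with few S genes, and 14 and 10 of these also had *CDKN1A* above 200 CPM. *ECM1*, a secreted matrix protein, was at 1105 against 113 CPM in other control cells and at 405 against 88.0 CPM after TGF-β1. *SUSD4* was at log2 3.21 and 3.31, *NMNAT2*, an enzyme of NAD synthesis, at 2.51 and 2.91, *HMOX1*, heme oxygenase, at 2.34 and 1.91 and the DNA repair gene *MGMT* at 2.06 and 1.89. *CXCL8*, a chemokine, was at 2.12 and 4.02, but 47% of its UMIs in TGF-β1 S cells came from 1 cell.

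The 13 stress and dissociation genes had medians of 0.35 and 0.31 in the S cells with few S genes, with 10 above 0 in each library, where 5209 and 5061 of the 9344 tested genes were above 0. Of the 13, 1 was over 2-fold higher in each library (*HMOX1*), against 2.34% and 1.38% of all tested genes. They summed to 4148 CPM against 3104 CPM in other control cells, and to 3193 against 2494 CPM after TGF-β1. In S cells with at least 8 S genes the medians were -0.02 and 0.01. Their part in the other differences of the cells with few S genes was not tested.

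Contractile genes had ratios below 0 in the S cells with few S genes, but most of these did not pass 2-fold. In the control library 2 of 13 were over 2-fold lower, where 1.86% of all tested genes were, and after TGF-β1 0 of 13 were, against 2.13%. The 2 were *ACTG2*, smooth muscle gamma actin, at -2.19 (-2.43 to -1.97) and -0.99 after TGF-β1, and *DES*, desmin, at -1.38 (-1.51 to -1.25) and -0.61. All 13 were below other cells in the control library and 12 of 13 after TGF-β1, with medians of -0.57 and -0.40, where 4135 and 4283 of the 9344 tested genes were below other cells. *ACTA2* was at 1810 CPM in control cells with few S genes, 4849 CPM in those with many and 3595 CPM in other cells, and after TGF-β1 at 3305, 5762 and 4724 CPM. *TAGLN* was at -0.63 and -0.39 and *MYL9* at -0.59 and -0.44. In S cells with at least 8 S genes the median of the contractile genes was 0.15 and 0.01. The sign of these differences was thus opposite for *ACTA2* in the S cells with few and with many S genes.

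**Figure D4:**
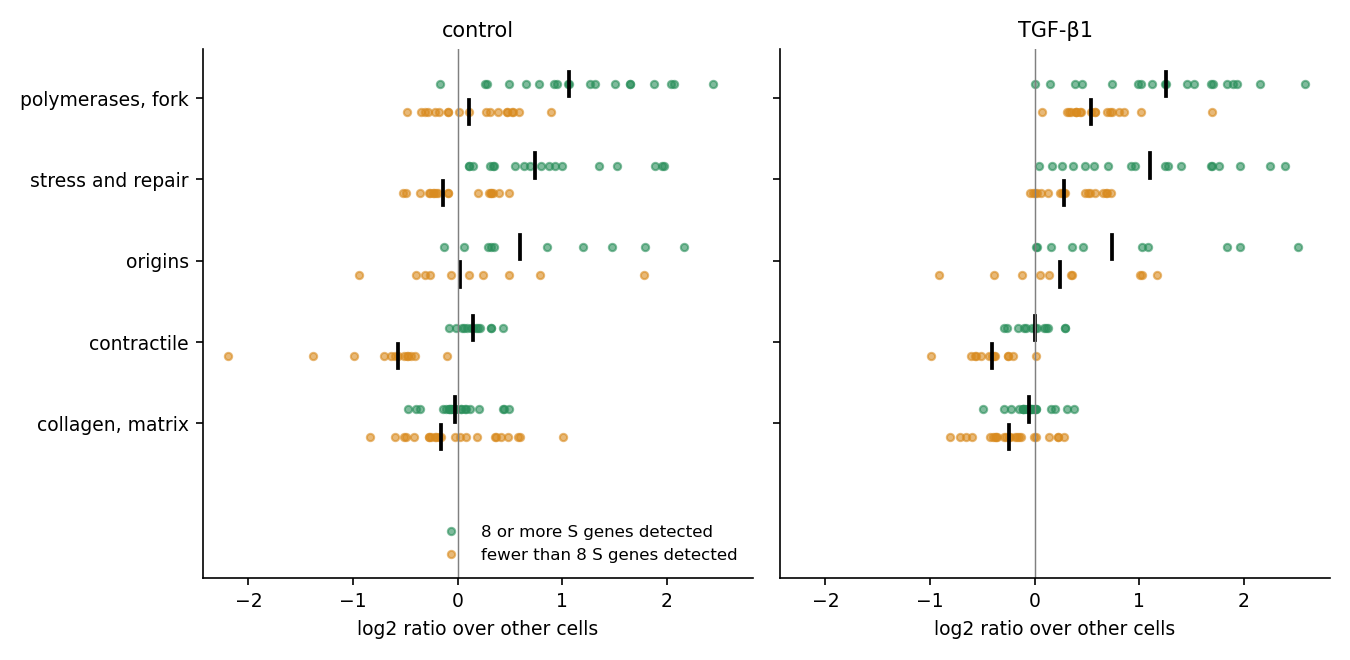
Log2 ratio over other cells of the same library for single genes (points) of 5 lists, in S cells with 8 or more and with fewer than 8 S genes detected; black lines are list medians. The contractile genes have medians of -0.57 and -0.40 in cells with few S genes and 0.15 and 0.01 in cells with many, and the medians of the polymerase and fork genes are higher in cells with many.

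The rule takes the same share of each library, so that the number of S cells cannot show an effect of TGF-β1. S cells made up 3.03% of kept control cells (2.51 to 3.62%) and 3.41% of kept TGF-β1 cells (2.90 to 3.98%), and the difference came from the mitosis limit alone. With all cells thinned to 20000 UMIs and a limit of 350 CPM from the control library, 4.24% of control cells (3.63 to 4.93%) and 4.37% of TGF-β1 cells (3.79 to 5.00%) passed. Without thinning, at 321.8 CPM, 5.02% and 5.01% passed. Of the thinned cells that passed, 110 control and 157 TGF-β1 cells had fewer than 6 mitosis genes. The shares depended on the genes scored, with 4.32% of control and 3.39% of TGF-β1 cells past the control limit for a score of 7 S genes and 3.98% and 5.52% for a score of the other 8. With all 15 genes the intervals of the libraries overlapped, and no direction held over these scores.

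Within S cells, 275 genes (2.94%) of 9357 at or above 5 CPM were over 2-fold higher after TGF-β1 than in the control library and 300 (3.21%) were lower. In other cells 248 (2.65%) were higher and 233 (2.49%) lower. Of the higher genes 201 were shared, 73.1% of the list of S cells and 81.0% of that of other cells. Of the lower genes 195 were shared, 65.0% and 83.7%. Both comparisons rest on the same pair of libraries.

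S cells carried the TGF-β1 profile of the culture. *IL11*, a profibrotic cytokine, was at 101 CPM in control and 2245 CPM in TGF-β1 S cells (log2 4.48), and its ratio was 3.71 in other cells. *IGFBP3*, which binds insulin-like growth factors, was at 6.38 and 164 CPM (4.69) and at 4.88 in other cells. *FN1*, fibronectin, had a ratio of 1.59 in S cells and 1.66 in other cells, *TGFBI* of 2.35 and 2.32 and *PMEPA1*, a feedback inhibitor of TGF-β signalling, of 2.28 and 2.13. The complement gene *CFD* had -2.70 and -2.65, and *VIM* -0.95 and -0.97. By list, the 17 TGF-β response genes had medians of 0.64 in S cells and 0.73 in other cells, with 7 over 2-fold higher in each. The 18 complement and interferon genes had medians of -1.01 in both, with 9 and 10 over 2-fold lower.

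The replication genes of S cells showed smaller ratios between the libraries. Those outside the rule had a median of 0.16 in S cells and -0.01 in other cells, and 0 were over 2-fold different in S cells. *WDHD1* was at 0.98 (0.63 to 1.34) in S cells and 0.54 in other cells. The S cells of each library were chosen by the sum of the S genes of the rule. The ratios of these genes within S cells thus depend on the choice and are given only as a description. *RRM2* was at 1.15 in S cells and 0.16 in other cells, *DTL*, below 5 CPM, which targets CDT1 for degradation, at 1.07 and 0.33, and *MCM5* at 0.60 and -0.23. *TYMS* was at -1.24 and -1.12. *CDKN1A* was at -0.96 (-1.10 to -0.82) in S cells and -0.32 in other cells. Few S genes were detected in 44 of 117 control and 42 of 154 TGF-β1 S cells, and the part of this in the ratio was not tested. In S cells with at least 8 S genes *CDKN1A* was also lower after TGF-β1, with medians of 20.9 CPM in the control library and 14.96 CPM after TGF-β1.

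**Figure D5:**
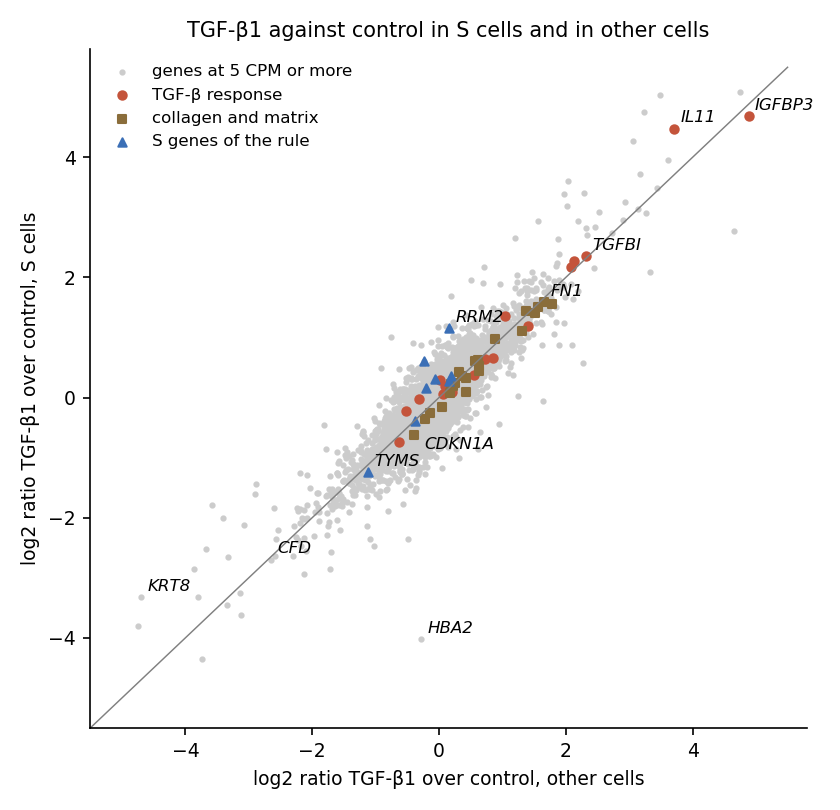
Log2 ratio of TGF-β1 over control in other cells (x axis) against the same ratio in S cells (y axis) for genes at or above 5 CPM. Genes of the TGF-β1 profile such as *IGFBP3* (4.88 and 4.69) and *CFD* (-2.65 and -2.70) lie near the diagonal, and *HBA2* (-0.28 and -4.03) lies far from it.

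Most of the ratios that differed most between S cells and other cells had large parts of their UMIs in few cells. *HBA2*, a hemoglobin chain, had a ratio of -4.03 in S cells and -0.28 in other cells. *CGA*, the alpha chain of the glycoprotein hormones, was at -2.35 and -0.49, and 1 control cell held 46% of its UMIs in S cells. *PTGR1*, a reductase of prostaglandin metabolites, was at -2.48 and -1.02, with 38% from 1 control cell. *SERPINB10* was at 0.57 and 2.28, and its 142 control UMIs came from 12 S cells. *FAM216B* was at 5.04 (4.25 to 5.96) and 3.49, from 13 UMIs in control S cells. *AKAP6*, an anchor of protein kinase A, had -0.86 and 0.62, and 1 of the 33 control S cells with any held 31.9% of its UMIs. The transcription factor gene *FOXQ1* had 2.17 and 0.71, from 21 UMIs in 10 control S cells.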

How the data were processed

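Single-cell counts were analysed for the control and the TGF-β1 library, and the MFGE8 library was not analysed here. The authors aligned reads to EquCab3.0 with the Ensembl annotation in Cell Ranger, for which the submitters' notes give version 7.1.0 and the file header 8.0.1, and deposited UMI counts per gene and barcode, which are whole numbers. The submitters' notes also name Seurat 5 and edgeR 4.2.2, and the study separated mares and removed doublets by genotype. These assignments were not used here, so cells of the 4 mares were not separated, and no doublet caller was run. In an alternative, cells with UMIs beyond the 98th percentile of their library were left out.

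Cells with at least 20000 UMIs, 3500 genes and under 4% mitochondrial UMIs were kept. UMIs were summed over S cells and over other cells of a library, and CPM ratios were formed without pseudocount. Ratios of single genes need 5 CPM over kept cells, except for the 7 S genes below that level (*MCM2*, *CDC45*, *CLSPN*, *CDC6*, *GINS2*, *UHRF1* and *DTL*) and genes named as below it, and more than 3 UMIs. The counts of genes over 2-fold and the choice of the 12 largest ratios used no minimum of UMIs. Intervals were Clopper-Pearson 95% intervals. Free RNA was not corrected. Thinning drew 20000 UMIs per cell. Named genes were the rule genes, the listed genes, the 12 largest ratios in each direction with the same sign in both libraries and the 8 largest differences between the TGF-β1 ratios of S cells and other cells. The members, the lists and the division at 8 S genes were chosen with earlier results of these data known. The limits of 200 CPM for *CDKN1A* and 100 CPM for *CA4*, and the leading genes of the cells with few S genes were chosen after values had been seen. Of 21426 genes, 5196 had no symbol. Some results are not reported here. Scripts were tested on simulated data and used Python 3.11.15, numpy 2.4.6, scipy 1.17.1, pandas 2.3.3 and matplotlib 3.10.9.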

Additional observations from a re-analysis of the deposited data

Results flagged for a closer look

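*HBA2* had a log2 ratio of S cells over other cells of 3.18 in the control library and of -0.56 after TGF-β1, so that the sign differed between the libraries, and this difference was not tested. In the control library 93% of its UMIs in S cells came from 1 cell, and without that cell the ratio was -0.54.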

How the results depend on the processing

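The percentage of S cells (3.03% control, 3.41% TGF-β1) was 1.45% and 1.77% with the top 3% of the score, 7.89% and 8.22% with the top 10%, 4.99% in both without the mitosis limit, and 1.89% and 2.48% with at least 8 S genes. After TGF-β1 it was 2.77% with fewer than 4 mitosis genes and 4.03% in thinned cells. The higher genes (59 and 69) numbered 116 and 118 with the top 3%, 35 and 30 with the top 10%, 186 and 134 without the mitosis limit, 186 and 200 from 1 CPM, 28 and 29 from 10 CPM, and 249 and 226 at 1.5-fold. The lower genes (24 and 8), in the same settings, numbered 57 and 39, 4 and 1, 11 and 4, 150 and 106, 7 and 3, and 101 and 78. They numbered 43 and 18 in thinned cells and 58 and 22 with at least 8 S genes. In the control library 15 were lower with a score of 7 S genes. After TGF-β1 17 were lower with a mean log2 score, 15 with a score of the other 8 and 13 without *PCNA*. The median of the replication genes (0.40 and 0.47) was 0.88 and 0.72 without the mitosis limit, 0.67 and 0.89 from 1 CPM, and after TGF-β1 0.67 with the top 3% and 0.32 with the top 10%. The 575 genes over 2-fold between S cells of the libraries became 1251 from 1 CPM and 1633 at 1.5-fold. The share of TGF-β1 cells past the control limit (4.37%, control 4.24%) was 2.95% with the top 3% (control 2.92%), 7.53% with the top 10% (7.94%), 5.92% with a mean log2 score (5.02%), 3.39% with a score of 7 S genes (4.32%), 5.52% with the other 8 (3.98%) and 5.01% unthinned (5.02%). The order of the libraries thus changed with the genes scored.

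*CDKN1A* in S cells (1.49 and 0.85) reversed to -0.47 and -0.60 with a mean log2 score and to -0.25 and -0.93 with at least 8 S genes, and after TGF-β1 to -0.65 with a score of the other 8 and -0.34 without *PCNA*, where the control values were 0.28 and 0.03. *CA4* (2.89 and 2.99) reversed to -2.13 and -1.70, to -1.21 and -0.998, and without *PCNA* to -1.71 and -0.98, and after TGF-β1 to -1.47 with the other 8 (control 0.53). The same ratios were higher with a score of 7 S genes, at 2.36 and 1.79 for *CDKN1A* and at 4.11 and 3.99 for *CA4*, and without the mitosis limit they were 0.80 and 0.49, and 1.99 and 2.31. With the mean of per-cell CPM *CDKN1A* was 1.79 and 1.501 and *CA4* 3.14 and 3.99. *CA4* was 2.14 and 2.03 with the top 3% and 3.75 and 3.02 with the top 10%. The cause was not tested. *PRIM1*, *CCND1*, *CDKN1C* and *DCN* kept their direction in both libraries under each of the 18 alternatives, and *PRIM1* (2.06 and 2.46) ranged from 1.27 to 2.99 and from 1.76 to 2.84, lowest with the top 10% and highest without the mitosis limit. With the division at 6 or 10 S genes, *CDKN1A* in cells with few S genes (2.97 and 2.89) was 3.45 and 3.67, or 2.52 and 1.97, and 3.79 and 3.74 at matched UMIs. Leaving out *PCNA*, requiring 8 S genes, moving the division and matching depth were chosen after seeing the data. No paired analysis was possible because each condition was 1 library, and for the same reason no library could be left out.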

Other observations

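Of 15 histone genes at or above 5 CPM in this assay, which captures polyadenylated RNA, 0 were over 2-fold higher in both libraries. This was near the share of all tested genes, of which 35 of 9344 were, so that the count says little about histone genes. In S cells with at least 8 S genes the log2 ratios of the 15 ranged from -1.11 to 0.58. The variant histone gene *H2AZ1* was at 444 against 348 CPM (log2 0.35, 0.30 to 0.40) in the control library and at 663 against 463 CPM (0.52, 0.48 to 0.56) after TGF-β1. *H2AC19* was over 2-fold higher in control S cells (log2 1.55, 1.44 to 1.67) and not after TGF-β1 (0.22, 0.07 to 0.37). It was at 232 CPM in control S cells with few S genes, 46.6 CPM in those with many and 33.7 CPM in other cells, and after TGF-β1 at 130, 30.7 and 42.1 CPM.

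Ribosomal and translation genes had medians of -0.13 in the control library and -0.04 after TGF-β1 over 17 members, and stress and dissociation genes of 0.12 and 0.02 over 13. The 12 mitochondria-encoded genes had medians of -0.20 and 0.03, and in S cells with at least 8 S genes 12 of 12 were below other cells in the control library and 6 of 12 after TGF-β1, where 4416 and 4747 of the 9344 tested genes were. In S cells with fewer S genes 6 of 12 and 2 of 12 were below other cells, with medians of -0.01 and 0.11. The keratin gene *KRT8* was at 41.9 CPM in control S cells and at 117 CPM in other control cells (-1.48, -1.65 to -1.32), whereas after TGF-β1 it was at 4.19 and 4.49 CPM (-0.10, -0.65 to 0.40).

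The S cells were not all cells with many S genes. Among other cells, 112 in the control library and 145 after TGF-β1 had at least 8 S genes detected, and 36 and 66 of these had fewer than 6 mitosis genes. They counted as other cells in the ratios given above. With cells of 6 or more mitosis genes taken out of the other cells, 85 genes were over 2-fold higher in each library, where 59 and 69 were with them.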
